A study of Saccharomyces cerevisiae with 2 samples.

Results

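The probes at which newly made histone H3 was scarcest were collected from both arrays of the series. A probe was called cold when its log2 ratio of new over total H3, centred on the array's median, was at or below -1.6 on both arrays, which is 3.03-fold below the median or lower. The members were selected on this measured ratio, among nuclear probes that the scanner software marked as well above background for Flag and for Myc on each array. Of 37318 such usable probes 1335 were cold, or 3.58%. Because the ratio chose them, its values are given as a description with no test, and the counts that follow are read beside the same counts over all 37318 usable probes.

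The samples were Saccharomyces cerevisiae cells of strain MDY513, which carries a deletion of HTZ1, the gene of the histone variant H2A.Z. The cells were arrested in G1 with alpha factor at 4 µg/mL for 4 h, collected by filtration and moved to rich medium with 2% galactose, and both samples were taken 180 min after induction. They carried a constitutive Myc-tagged H3, immunoprecipitated with anti-Myc and labelled with Cy5, and a galactose-induced Flag-tagged H3, immunoprecipitated with anti-Flag and labelled with Cy3. There was 1 group of 2 replicate arrays, with the same dye orientation on both and no group with H2A.Z, and separate cultures are not stated for the replicates, so the SDs may show technical spread only. What the deletion of HTZ1 or the dyes did to the ratio cannot be told apart from the rest in this design.

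Histone H3 sits at the core of each nucleosome. While cells stay arrested and do not replicate their DNA, new tagged H3 can enter chromatin only where old H3 was evicted or exchanged. Yeast promoters are known for fast exchange of H3 and the bodies of weakly transcribed genes for slow exchange. A cold probe marks DNA at which new H3 made up an unusually small part of the H3 present, relative to the median probe of the same array, and says nothing on an absolute scale.

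The range of the cold probes was in part set by the rule, whose threshold fixes the upper end. Their mean log2 ratio over both arrays ran from -2.95 to -1.61 with a median of -1.87, or 3.66-fold below the array median. Only 174 of them were at or below -2 on both arrays. The median SD between the arrays was 0.12 at cold probes and 0.16 at all usable probes. The rule asks for a low ratio on both arrays, so the smaller SD at cold probes is in part set by the selection. Replicate 1 alone placed 2237 probes (5.99%) at or below the threshold and replicate 2 alone 2086 (5.59%), and 1653 probes passed on 1 array only. Just inside the threshold lay probes of UFD2 (-1.87364 and -1.60016 on replicates 1 and 2), LST4 (-1.99890 and -1.60037) and HEF3 (-1.62379 and -1.60053). Just outside lay probes of MET7 (-1.74102 and -1.59985), SGS1 (-1.59982 and -1.85084) and MRS4 (-1.59970 and -1.68128). The members next to the threshold and the probes they exclude were thus not separated by more than the spread between arrays.

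**Figure D1:**
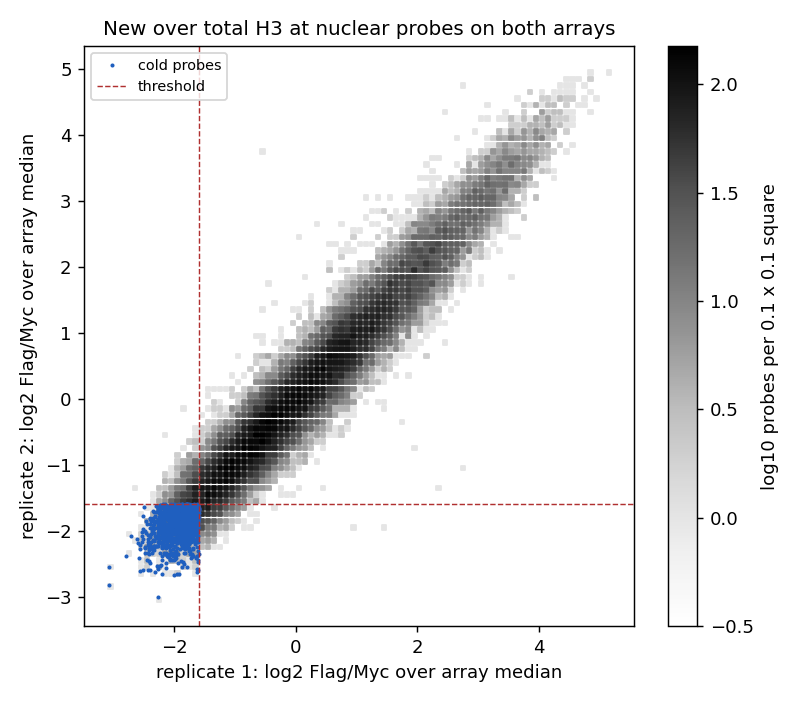
Centred log2 ratio of Flag to Myc signal on replicate 1 (horizontal) and replicate 2 (vertical), for 37318 usable nuclear probes counted in squares of 0.1 by 0.1 log2 units (grey, log10 scale) with the 1335 cold probes drawn as blue points. The dashed lines are the threshold of -1.6 on each array, and the cold probes fill the lower left corner without a gap to their neighbours.

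The low ratio came with a dim Flag channel and a bright Myc channel. Flag and Myc make up the ratio that chose the probes, so this is in part set by the rule. The median cold probe stood at percentile 30.1 of the usable probes for Flag signal on replicate 1 and at 25.4 on replicate 2. For Myc signal it stood at percentile 80.2 and 83.0. A probe needs enough Myc signal to show a low ratio while its Flag signal is still above background, and 4518 usable probes had too little Myc signal to reach the threshold at the lowest Flag signal called well above background. Of the other 32800, 4.07% were cold. A further 28 probes had ratios at or below -1.6 on both arrays and Myc signal well above background, but were excluded because Flag was not well above background on at least 1 array. The lowest of these lay in SWI1, a subunit of the SWI/SNF remodeller (-2.40 and -2.60), and TOR1, the growth-regulating kinase (-1.97 and -2.61), which were picked after their values were seen. No usable probe was saturated, and 5.62% of cold probes had an outlier flag from the scanner software against 6.48% of usable probes.

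Cold probes lay almost entirely inside genes. Reading frames held the midpoints of 1284 of the 1335 cold probes (96.2%), against 73.1% of usable probes. Of 27287 usable probes in frames 4.71% were cold. Of 6053 outside frames and within 500 bp upstream of a start codon 13 were cold (0.215%), and of 3978 elsewhere 38 were (0.955%). Upstream probes inside a neighbouring frame were counted as frame probes. Probes in genes whose frames were not used count as outside frames here. By the distances in the files, no cold probe lay within 500 bp of the listed left end of a tRNA gene (0 of 668 usable probes, which allows a share of up to 0.449%), an LTR (0 of 559, up to 0.537%), a snoRNA gene (0 of 184, up to 1.63%), an origin of replication (0 of 142, up to 2.11%), a Ty element (0 of 62, up to 4.84%) or a centromere (0 of 40, up to 7.50%). These limits cover counting error only. Outside frames as a whole cold probes were rare too (51 of 10031 usable probes). Whether the elements differ from other DNA outside frames was not tested. For Ty elements and centromeres the limits lie above the 3.58% of all usable probes, so those counts show no shortage. The median probe beside these elements was above the array median, from 0.66 near LTRs to 1.26 near snoRNA genes.

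Inside frames the cold probes kept to the middle. When each frame was cut into 5 equal parts from start to stop, 1.28% of usable probes in the first part were cold, 6.65% in the second, 8.19% in the middle, 6.25% in the one after it and 1.56% in the last. The share also followed the distance in base pairs from the nearer end of the frame. Within 250 bp of the nearer end 56 of 10001 probes were cold (0.560%). The share was 1.64% from 250 to 500 bp, 4.94% from 500 to 750 bp, 8.84% from 750 to 1000 bp and 16.3% from 1000 to 1500 bp. Deeper in the frame it changed less, with 17.4% from 1500 to 2000 bp, 19.6% from 2000 to 3000 bp and 14.4% from 3000 bp on, the last over 188 probes.

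Frames of different length had like shares at the same depth. From 1000 to 1500 bp inside the nearer end 14.7% of probes were cold in frames of 2000 to 3000 bp, 18.2% in those of 3000 to 4000 bp, 16.5% in those of 4000 to 6000 bp and 16.1% in longer ones. An exception was the class of 1000 to 2000 bp, in which the share was 4.31% at 750 to 1000 bp, against 8.47% to 12.2% in the longer classes. The start of the frame held fewer cold probes than its end: 10 of 5087 probes within 250 bp of the start codon were cold (0.197%) and 48 of 5273 within 250 bp of the stop codon (0.910%). Myc signal was also lower near the ends, with a median percentile of 53.5 on replicate 1 within 250 bp of an end and 65.2 from 1000 to 1500 bp. A set of probes above the array's median Myc signal on both arrays was chosen after the data were seen. In this set the share went from 1.13% to 22.4% between those bins. Myc is part of the ratio, and its median percentile on replicate 1 went from 77.6 to 80.2 between the same bins of this set. Whether Myc signal accounts for the trend was not tested.

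**Figure D2:**
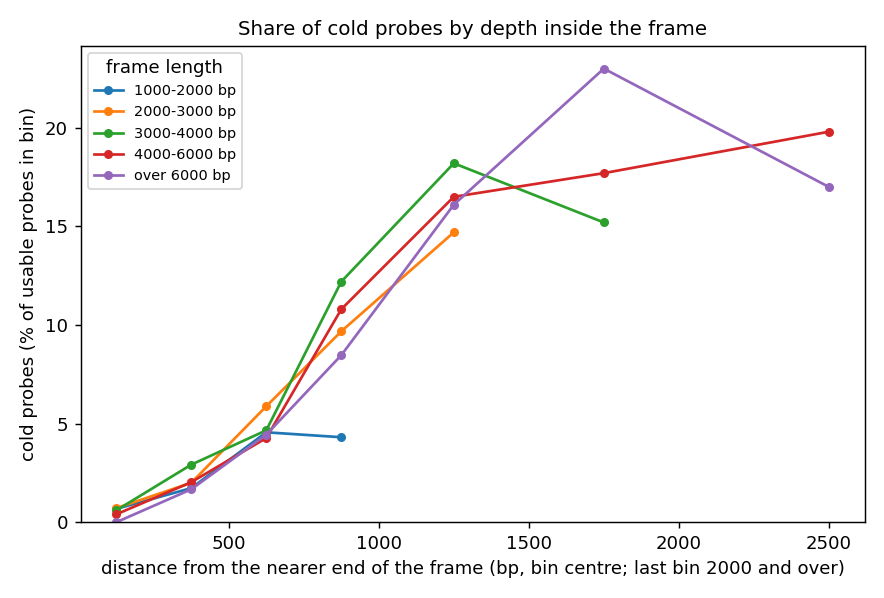
Share of usable probes that were cold (percent) by distance of the probe from the nearer end of its reading frame (bp, centre of each bin, the last holding all probes beyond 2000 bp), with a line for each class of frame length. The lines lie close to each other up to 750 bp, and from 1000 to 1500 bp the 4 longer classes stand between 14.7% and 18.2%.

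Long frames held a cold probe far more often than short ones. A cold probe was found in 663 of 5582 measured frames, or 11.9%, of which 331 are on the forward strand and 332 on the reverse strand. The median length of these frames was 2667 bp, against 1222.5 bp for all measured frames. Of frames up to 500 bp 0.432% held one, and the share was 3.84% from 1000 to 1500 bp, 12.1% from 1500 to 2000 bp, 28.9% from 2000 to 3000 bp, 48.9% from 3000 to 4000 bp and 62.8% from 4000 to 6000 bp. Beyond 6000 bp 33 of 37 frames held at least 1 cold probe (89.2%). Long frames carry more usable probes and so have more chances to hold a cold one. Counted by probe, the share was 0.386% in frames up to 500 bp and 14.0% in frames over 6000 bp. Of the 663 frames, 335 held 1 cold probe, 166 held 2 and 162 held 3 or more, and the last group held 48.1% of the cold probes in frames.

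No frame with at least 3 usable probes was cold throughout, and 35 of 4333 such frames were cold at 50% or more of their probes. Within 447 of the 663 frames some other probe stood above the array median, and the highest probe of the median frame was at 0.39. Some long frames had none: of 185 frames over 4000 bp, 59 had no cold probe. The highest of these, chosen after its values were seen, was FIG2, a cell wall adhesin gene induced by pheromone, whose 15 probes averaged 2.29 ± 0.00 (SD, n = 2 arrays) and ranged from 1.59 to 3.16.

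The lowest probes of all were in genes of unlike function. The first was in ECM16, which codes for a helicase of ribosome assembly, at chr13:525433-525492, 1768 bp from the start codon of a 3804 bp frame. It had -3.07 on replicate 1 and -2.83 on replicate 2, or -2.95 ± 0.17 (7.72-fold below the median). Its neighbours in the same frame had -2.36 and -1.99 to the left and -2.28 and -1.86 to the right. Along the ECM16 frame the ratio fell from 0.73 and 1.25 at the probe nearest to the start codon and was back at -0.02 and -0.69 at the last probe.

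DAN4, a cell wall mannoprotein gene expressed without oxygen, held the second and the tenth lowest probe. The probe at chr10:713793-713852 had -3.07 and -2.55 (-2.81 ± 0.37), and its neighbour at chr10:713621-713680 had -2.32 and -2.63 (-2.48 ± 0.22). DAN4 codes for a protein with internal repeats, and a probe in a repeat can read several copies of it. Next came NUP170, a nuclear pore subunit, with -2.27 and -3.00 at chr2:76652-76711, the widest disagreement between arrays among the 10 (SD 0.52). PSY2, a subunit of protein phosphatase 4, had -2.80 and -2.39 at chr14:261451-261510. FLO1, a flocculin that makes cells clump, had -2.57 and -2.61 at chr1:204160-204219.

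The other 4 lowest probes also lay well inside their frames. The kinase gene ATG1, which starts autophagy, had -2.52 and -2.59 at chr7:161590-161649, 1549 bp into a frame of 2694 bp. CWH43, which acts in the lipid remodelling of GPI anchors, had -2.43 and -2.59 at chr3:146141-146200. SWR1, the motor of the complex that deposits H2A.Z, had -2.59 and -2.42 at chr4:1137605-1137664 in a strain that has no H2A.Z to deposit. The helicase gene NAM7, also called UPF1, which acts in nonsense-mediated mRNA decay, had -2.40 and -2.59 at chr13:427834-427893. Of these 10 probes the FLO1 one lay nearest to a frame end, at 796 bp from the start codon.

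The frames with most cold probes were those of CDC39 and SEN1, followed by 6 frames with 7 each. CDC39, the scaffold of the Ccr4-Not complex that deadenylates mRNA, had 8 cold of 20 usable probes, all in 1 unbroken run from 1297 to 3570 bp of a 6327 bp frame (chr3:281380-283712). The run averaged -1.84 on replicate 1 and -2.04 on replicate 2. The first probe of the frame had 0.01 and 0.40, and the last had 1.69 and 0.97, so that both ends stood at or above the array median. A further cold probe lay upstream of the frame, between MSH3 and CDC39 (-1.61 and -1.73 at chr3:279862-279921). The SEN1 frame, of a helicase that ends transcription of short noncoding RNAs, likewise held 8 cold of 21 probes, between 1447 and 4274 bp. Unlike CDC39, it was below the array median at each of its 21 probes on both arrays, from -2.31 to -0.43 on replicate 1 and from -2.23 to -0.58 on replicate 2.

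IKI3, the largest subunit of the Elongator complex, had 7 cold of 13 probes in 1 run (chr12:889825-891917) that averaged -2.01 and -1.97. SIN3, the scaffold of the Rpd3 histone deacetylase complexes, had 7 of 14 in 1 run (chr15:317956-320083) that averaged -2.06 and -1.86. TRA1, a subunit of the SAGA and NuA4 acetyltransferase complexes, had 7 of 35 spread from 1042 to 9426 bp of its 11235 bp frame. GCN1, an activator of the kinase Gcn2, had 7 of 24. SLH1, an RNA helicase that acts on stalled ribosomes, had 7 of 18. In each of these 5 frames the mean over all probes was between -1.30 and -1.40 with an SD between arrays of at most 0.18.

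NTE1, a phospholipase, also had 7 cold probes, of 16, the first of them 242 bp from the start codon. NAM7 had 6 of 9, and its first probe had 0.58 and 0.17 while its last, 2678 bp into a frame of 2916 bp, had -1.70 and -2.39. UTP22, of the small-subunit processome, and SCP160, an RNA-binding protein with KH domains, had 6 of 12 each. SSK2, a kinase of the osmotic stress pathway, had 6 of 15. LAA1, which works with a clathrin adaptor, had 6 of 19. FAB1, which makes a vacuolar phosphoinositide, had 6 of 20, and TEL1, a DNA damage kinase, had 6 of 26. The frame means of these 8 ran from -1.01 ± 0.04 for LAA1 to -1.604 ± 0.09 for NTE1, with NAM7 at -1.6002 ± 0.15 (SD, n = 2).

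The highest share of cold probes in a frame with at least 3 probes was in CIN10, which was looked up after the values were seen. Of its 6 probes 5 were cold, and their means ran from -2.37 to -1.87. The sixth had -1.43 and -1.22. MMM1, of the tether between mitochondria and the endoplasmic reticulum, followed with 3 of 4, at -1.79 and -1.87, at -1.76 and -2.07, and at -2.01 and -2.01. The remaining probe, 75 bp from the start codon, had -0.42 and -0.65.

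**Figure D3:**
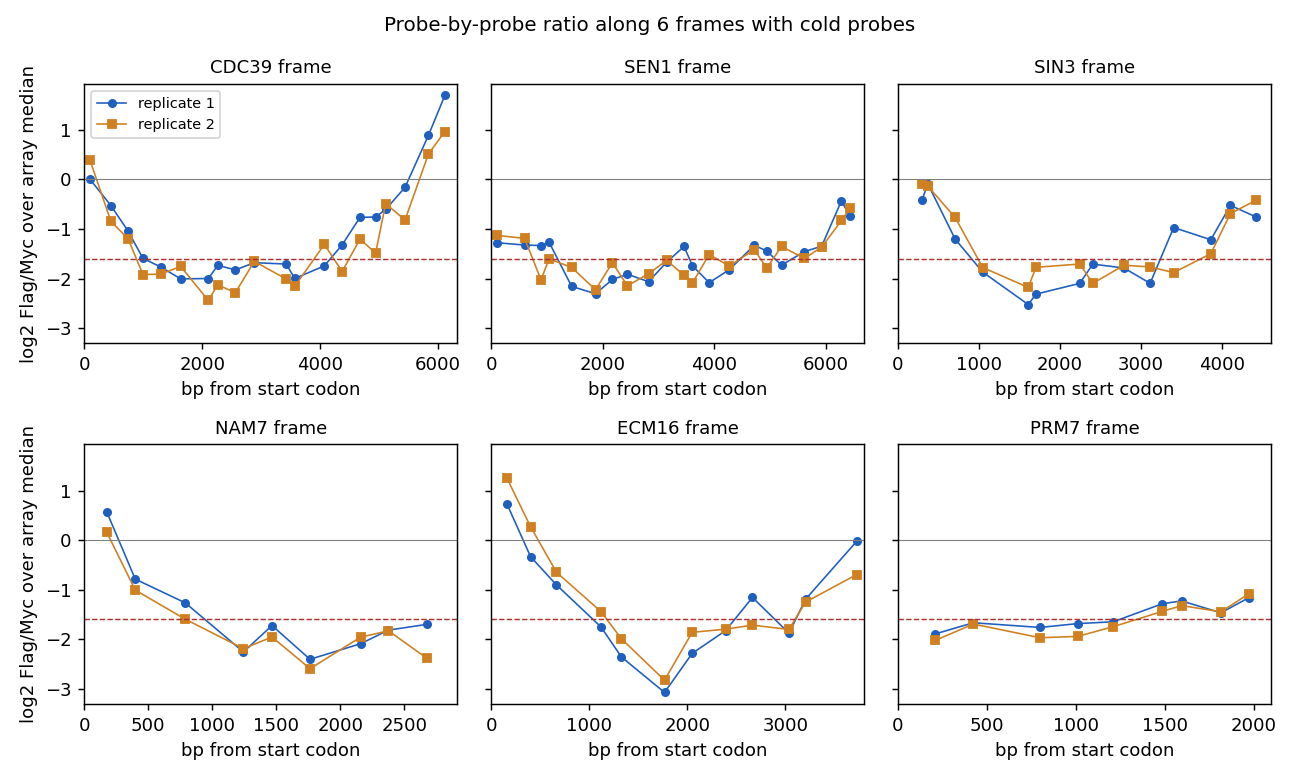
Centred log2 ratio of Flag to Myc signal (vertical) at each usable probe by distance from the start codon (horizontal, bp) in the frames of CDC39, SEN1, SIN3, NAM7, ECM16 and PRM7, for replicate 1 (blue circles) and replicate 2 (orange squares), with the threshold of -1.6 dashed and the array median as a grey line. CDC39 and ECM16 are lowest in the middle, NAM7 stays low to its end, and PRM7 is cold at its start and rises to -1.16 and -1.08 at its last probe.

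Cold probes tended to be next to each other. The 1335 probes formed 866 stretches of neighbouring usable probes, of which 584 were single probes and 282 held 2 or more. Those 282 runs held 751 cold probes (56.3%). There were 172 runs of 2 probes, 67 of 3 and 43 of 4 or more, of which 3 had a probe outside frames. Of all 1335 cold probes 35.1% had a cold right-hand neighbour, against 3.58% of all usable probes. The median ratio of that neighbour was -1.57, and 98.6% of right-hand neighbours were below the array median. At 2 probes away the median was -1.32, at 3 it was -0.93, and at 6 it was -0.15. The left side was alike, with -1.57, -1.31, -0.97 and -0.29 at the same steps. Neighbours share the gene and often overlapping sheared DNA fragments, so they are not separate measurements. Probes were 60 bp long with a median spacing of 267 bp.

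**Figure D4:**
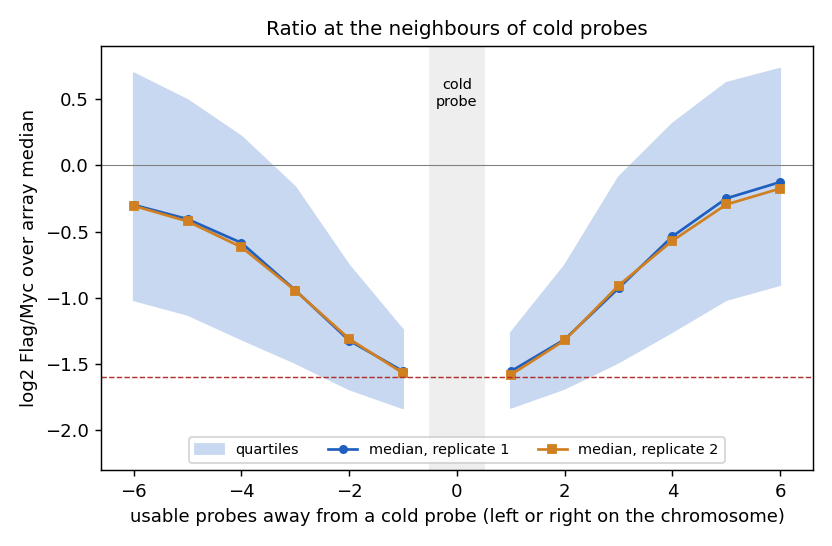
Median centred log2 ratio of Flag to Myc signal (vertical) at usable probes 1 to 6 steps to the left and right of the 1335 cold probes (horizontal), for replicate 1 and replicate 2, with the quartiles of the mean of both arrays shaded and the threshold dashed. On the right the medians rise from -1.55 and -1.58 (replicates 1 and 2) beside a cold probe to -0.13 and -0.18 at 6 steps, and on the left from -1.55 and -1.57 to -0.30 and -0.31.

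The run with most probes crossed from one gene to the next. It held 9 probes over 2316 bp (chr4:382841-385156) and averaged -1.78 on replicate 1 and -1.91 on replicate 2. By length it was exceeded by the CDC39 run (2333 bp) and by a run of 4 probes in FLO11 (2626 bp). The FLO11 run has no usable probe between 863 and 2757 bp of its frame, so much of its length was not measured. The run of 9 probes covered the first 5 probes of PRM7, a pheromone-regulated membrane protein gene, then 2 probes upstream of its start codon (-2.10 and -2.12, and -1.73 and -1.96), then 2 probes of BSC1. Unlike the usual shape, the PRM7 frame was cold from its start, with its first probe at -1.89 and -2.02. It rose only toward the stop codon, to -1.16 and -1.08 at its last probe. Past the run the ratio rose above the median within the BSC1 side, from -0.34 and -0.31 at chr4:385719-385778 to 1.02 and 1.1006 at chr4:385861-385920. The gene names in this region are those of the reference gene table, which joins into PRM7 probes that the array lists under YDL038C.

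Another long run, of 7 probes, lay around YFR054C near the right end of chromosome 6 (chr6:258320-259740) and averaged -2.12 and -2.09. Only 2 of its probes were in the YFR054C frame, at -2.51 and -1.97 and at -2.41 and -1.83. With the next cold probe, at -2.40 and -2.09, the low stretch ended by chr6:260671-260730, where the ratio was 0.28 and 0.13. A run of 5 probes that touched no frame lay on the left arm of chromosome 5 (chr5:9048-10189) and averaged -1.98 and -1.91. Runs of 2 or more touched more than 1 frame in 3 places: PRM7 with BSC1, MMM1 with SPO75, and ERV41 with ITT1.

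Outside frames the cold probes were mostly near chromosome ends. Of 51 such probes, 32 lay within 20 kb of the outermost probe of a chromosome arm. That was 32 of 871 usable probes outside frames within this distance (3.67%), against 19 of 9160 farther in (0.207%). Outside here means outside the 5868 frames used, so some of these probes may lie in genes whose frames were not used. Examples are cold probes that the array lists under SAP190, such as chr11:495377-495436 (-1.97 and -1.85). Over all probes, 29 of 321 in the outermost 5 kb were cold (9.03%), 19 of 380 from 5 to 10 kb, 3.92% from 10 to 20 kb and 3.34% beyond 100 kb. The trend was not even, since the share was 2.39% from 20 to 30 kb and 5.36% from 30 to 50 kb. Among whole chromosomes it ran from 2.35% on chromosome 11 to 5.50% on chromosome 3.

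Beside the unbroken runs at YFR054C and on chromosome 5, both within 20 kb of an end, other end stretches were interrupted by high probes. On chromosome 6 beside YFR057W, 3 neighbouring probes at chr6:267101-267645 had -2.04 and -2.34, -1.83 and -1.96, and -2.31 and -2.23, while a probe at chr6:268529-268588 had 0.21 and 0.26. The 2 probes in the YFR057W frame itself were cold again, at -1.99 and -1.79 and at -1.64 and -1.66. On chromosome 7 the probe at chr7:5094-5153 had -2.44 and -2.34, whereas one in the nearby COS12 frame had 1.70 and 1.35. Upstream of PAU8 at the left end of chromosome 1 a probe had -2.17 and -2.06, and the next usable one, at chr1:2858-2917, had 1.27 and 0.72. Yeast subtelomeres share near-identical sequences, so such probes can read other chromosome ends as well.

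The silent mating cassettes, copies of mating-type information kept repressed by the Sir proteins, held 2 cold probes. One lay in HMLALPHA1 (-1.85 and -1.63). The other lay between HMRA2 and HMRA1 (-1.799 and -2.14) at chr3:293717-293776, with -0.98 and -1.29 on one side and -0.27 and -0.47 on the other. Cells that answer alpha factor hold the same DNA as HMR at MAT, so the HMR probes can read both places.

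The promoters of frames with cold probes were mostly not cold themselves. Promoters were read at usable probes within 500 bp upstream that lay outside all frames used. The promoter of the median frame stood at 0.74 for 553 frames with a cold probe (0.79 on replicate 1 and 0.67 on replicate 2). It stood at 0.95 for 4073 frames without. Among frames over 2000 bp the medians were 0.72 and 0.92. No test of this difference was made, because promoter and frame values come from the same arrays as the calls. Of the 553, 436 promoters (78.8%) were above the array median and 57 (10.3%) above 2 log2 units, against 86.2% and 17.0% of the 4626 measured promoters of all frames. The highest, picked like those that follow for their values, was HAP1, a haem-responsive activator, with a single promoter probe at 4.15 ± 0.10 above a frame with 1 cold probe of 13. SWR1 had 1.77 ± 0.20 upstream, SLH1 1.86 ± 0.04, and SEN1 -0.13 ± 0.29. At the low end 6 frames had promoters below -1, namely YFR054C (-1.99 ± 0.03), PRM7 (-1.98 ± 0.09), YMR247W-A (-1.75 ± 0.13), EMA35 (-1.66 ± 0.20), FLO11 (-1.13 ± 0.20) and CLG1 (-1.13 ± 0.13).

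Gene lists were counted next, with 4.70% of probes cold in all frames, and 16.9% of 4111 probes more than 1000 bp inside both frame ends. The 5 largest shares were in lists of only 3 to 27 probes. All but 1 of 5 flocculin genes held a cold probe, with 8 cold of 26 probes. FLO11, which acts in adhesion and invasive growth, had 4 of 8, with its lowest at -2.40 and -2.50, and its last probe at 1.24 and 0.47. FLO10 had 2 of 9, FLO5 1 of 2 and FLO1 1 of 4. Of 6 measured PAU, DAN and TIR genes, which are induced without oxygen, 3 held 7 cold of 26 probes: DAN4 with 4 of 9, TIR4 with 2 of 5 and DAN1 with 1 of 3. The VPS10 family of sorting receptors had 3 cold of 8 probes, in VTH2 (2 of 2) and VTH1 (1 of 6). VTH1 and VTH2 are near-identical, as are parts of the flocculin, PAU, HXT, COS and ENA genes, so their probes may read copies elsewhere. The signalling list of 4 genes had 6 cold of 27 probes, in SLN1 (3 of 12), the osmosensing histidine kinase, and SKN7 (3 of 6), a response regulator whose frame averaged -1.72 and -1.61.

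Lists of long genes had many members. Among 29 very large proteins 21 frames held 68 cold of 626 probes (10.9%), but over their 450 probes more than 1000 bp inside the frame the share was 13.6%, below the 16.9% of all frames. TRA1 and GCN1 had 7 each, and TEL1 and the dynein heavy chain gene DYN1 6 each. ABC transporters had 19 cold of 257 probes (7.39%) in 11 of 21 frames, and 10.5% of their inner probes. YBT1, a vacuolar transporter, held 4 of 16, PDR18 3 of 13, and NFT1 and YOR1 2 each. P-type ATPases had 14 of 165 (8.48%) in 9 of 16 frames, and 7 of their 74 inner probes (9.46%), which is likewise below the share over all frames. PMA2, the minor plasma membrane proton pump, had 3 of 9 with its lowest at -2.33, while PMR1 (Golgi calcium pump), CCC2 (copper transport) and DNF3 (lipid flippase) had 2 each.

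Ribosome biogenesis genes had 36 cold of 471 probes (7.64%) in 16 of 64 frames, and 16.5% of their inner probes. UTP22 led with 6 of 12, followed by RRP12, UTP20 and REA1 with 4 each. Chromatin remodellers had 17 of 193 (8.81%) in 7 of 17 frames, and 13 of 91 inner probes (14.3%, against 16.9% over all frames), with SWR1 at 5 of 14, and SWI1, CHD1 and STH1, the motor of RSC, at 3 each. Among 19 G2/M genes, whose products act later in the cycle than G1, 5 held 8 cold of 148 probes (5.41%), and 12.2% of their inner probes were cold. CHS2, a chitin synthase of the septum, had 3 of 9, MYO1, the myosin of the contractile ring, 2 of 17, and HOF1 and IQG1 1 each.

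The remaining lists held few members. Of 49 meiosis and sporulation genes 4 held 5 cold of 246 probes (2.03%), with 2 in SPO75 and 1 each in MND2, GAS4 and IME2, the meiotic kinase, whose promoter stood at 3.37 ± 0.09. Hexose transporters had 4 of 48 (8.33%), with 2 in HXT10 and 1 each in HXT14 and HXT1. Iron uptake genes had 3 of 78 (3.85%), 1 each in FIT1, SIT1 and FRE5, and COS genes had 1 of 15, in COS12. Maltose genes had 0 of 23 (which allows up to 13.0%), yapsins 0 of 28 (up to 10.7%) and acid phosphatases 0 of 9 (up to 33.3%). The median frame length was 1403 bp in the meiosis list, and 0 of its 18 probes more than 1000 bp inside a frame were cold (which allows up to 16.7%), against 16.9% over all frames. The maltose, yapsin, acid phosphatase, hexose transporter and COS lists had no such inner probe, and the iron list had 2, neither of them cold.

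**Figure D5:**
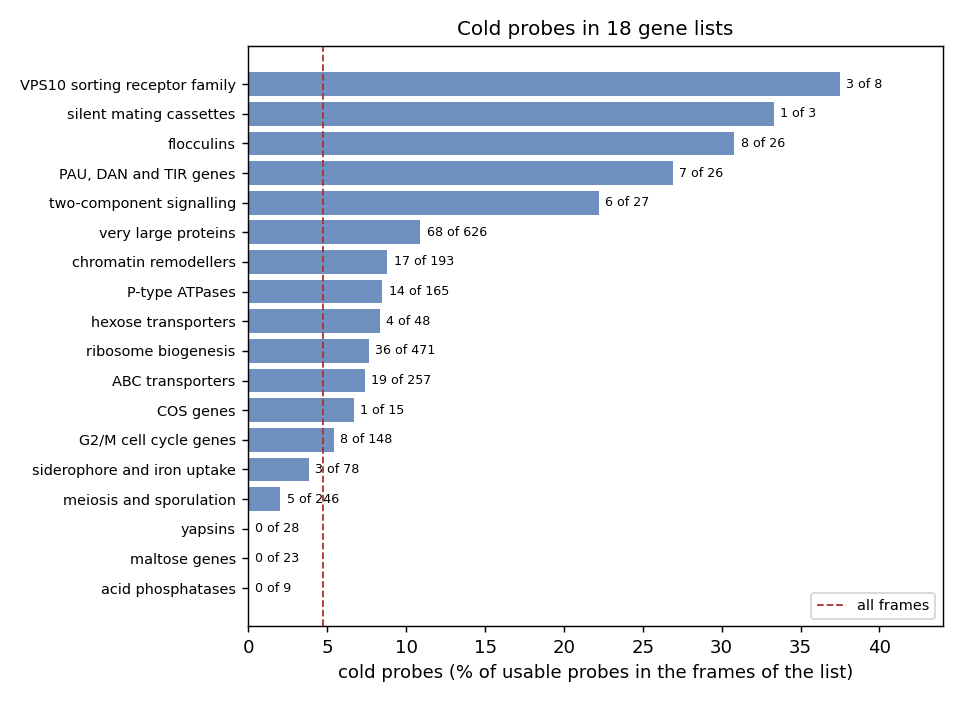
Share of usable frame probes that were cold (horizontal, percent) in each of 18 gene lists, with the number of cold and usable probes beside each bar and the share over all frames (4.70%) as a dashed line. The lists at the top rest on 3 to 27 probes each, and the 3 at the bottom had none.

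Which single probes were called depended on the processing. Loess within arrays gave 972 cold probes, of which 693 were among the 1335 (51.9% of them), and normexp background correction gave 591, of which 537 were (40.2%). Under these settings the share of cold probes in frames was 96.0% and 95.8%, and from 1000 to 1500 bp inside a frame 10.4% and 7.15% of probes were cold, against 0.480% and 0.270% within 250 bp of an end.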

How the data were processed

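The 2 arrays were 44K 2-colour Agilent tiling arrays of the yeast genome. Immunoprecipitated DNA was amplified linearly through RNA and labelled, per the labels' protocols. The authors deposited scanner output of Agilent Feature Extraction 8.5.1.1, whose processed intensity values are background-subtracted and dye-normalized, per the file headers. The authors' deposited value table holds log2 Myc over Flag of the same arrays and was used as an alternative. Control and mitochondrial probes were left out. The ratio log2(Flag processed signal / Myc processed signal) was centred on each array's median over usable probes (marked well above background for Flag and Myc on each array), before which the medians were -0.46 and -0.45. The arrays correlated at Pearson r = 0.97 over these probes. The number of arrays limits the precision.

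Frame ends came from the distances listed in the files and frame lengths from the RefSeq R64 gene table, which held 5927 of 6593 listed frames. After 12 frames with a contradicted end and 47 with a moved left end were left out, 5868 were used. For the probe coordinates, no source used here names the genome build. A run is a stretch of cold probes with no other usable probe between them. Members and lists were chosen with earlier results of these data known. Named genes were those of the 10 lowest probes, the 15 frames with most cold probes, the 5 runs with most probes, frames of at least 3 probes that were all cold (none found), and up to 4 members with cold probes in each of 18 lists; others are said to be chosen for their values. No test was made, since the rule uses the ratio and there is 1 group. Calling and run finding were tested on simulated data. The planted probes lay far from the threshold, so this checks the code and not the calls near the threshold. Python 3.11.15 (pandas 2.3.3, numpy 2.4.6) was used, and limma 3.58.1 in R 4.3.3 for loess and normexp (offset 50). Other alternatives were outlier flags, no dim filter, scaled arrays, thresholds of -1.5 and -1.8, single arrays and neighbours among all probes.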

Additional observations from a re-analysis of the deposited data

How the results depend on the processing

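The number of cold probes (1335) was 591 with normexp and 549 at a threshold of -1.8, and each array alone gave 2086 to 2237. It rose to 1875 with no dim filter and to 1896 at -1.5. Frames with a cold probe (663) were 397 with normexp, 345 at -1.8 and 912 to 1022 on single arrays. They were 845 with no dim filter and 853 at -1.5. Runs of 2 or more (282) were 156 with loess, 84 with normexp, 428 at -1.5, 94 at -1.8 and 458 to 488 on single arrays. With no dim filter there were 416. The share of cold probes in frames (96.2%) moved to 95.8% with normexp, 96.6% at -1.5, 95.1% at -1.8 and 95.9% to 96.4% on single arrays. The share of frame members in the middle of 3 equal parts (56.3%) was 57.0% without outlier-flagged probes, 55.8% with no dim filter, 53.2% with loess, 58.3% with normexp, 55.5% at -1.5, 59.0% at -1.8 and 53.9% to 54.5% on single arrays. The share within 20 kb of a chromosome end (6.37%) was 5.76% with no dim filter, 7.10% with loess, 8.80% with normexp, 5.70% at -1.5, 8.38% at -1.8 and 5.63% to 6.09% on single arrays. Of all usable probes 4.41% lay within this distance. Other thresholds, single arrays and leaving out the dim filter change the counts by construction. For loess and normexp the cause was not tested. The deposited value table gave the same 1335 probes. Limiting the calls to probes above the median Myc signal on both arrays, an alternative chosen after seeing the data, gave 1101. No paired analysis was possible because there is 1 group. Depth of signal limits the calls at probes with a dim Myc channel, which could not reach the threshold.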
